A study of Arabidopsis thaliana with 6 samples.

Results

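The nitrate uptake and reduction genes followed here in roots of Arabidopsis thaliana seedlings were NRT2.6 (AT3G45060), NRT2.3 (AT5G60780) and NIA1 (AT1G77760). They are 3 of the 708 entries of the authors' deposited table, which compares roots of wild-type plants with roots of the hb13 mutant, and they were picked by locus with their values in this table known. Both genotypes were in the Col-0 ecotype and were grown on standard medium, with root tissue taken at 5 days about 0.5 cm from the tip and labelled as whole root. Each genotype had 3 libraries from numbered biological replicates, made from polyadenylated RNA with strand kept and sequenced as single-end reads of 100 bases. HB13 is a class I homeodomain-leucine zipper transcription factor, and the labels name neither the allele nor the number of lines behind the mutant. The table gives 1 value per genotype and no value per library, so no spread between replicates, interval or depth stands behind any value below, and only the authors' q-value sets a difference against replicate variation.

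Plant roots take up nitrate from the soil through low-affinity carriers, mostly of the NPF (NRT1/PTR) family, and through high-affinity carriers of the NRT2 family, several of which work only together with the small partner protein NRT3.1. Nitrate reductase then turns nitrate into nitrite in the cytosol, nitrite reductase turns nitrite into ammonium in the plastid, and glutamine and asparagine synthetases carry the nitrogen onward. In Arabidopsis NRT2.1 is the main high-affinity carrier of nitrate-fed roots, and NIA2 provides most of the nitrate reductase activity of seedlings. NRT2.6 has been linked to plant responses to bacteria and NRT2.3 is among the least described members of the family, while NIA1 is the minor and strongly nitrate-inducible reductase.

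Coordinates and sequences below are from RefSeq assembly TAIR10.1. The submitters' processing notes name TAIR10, the release whose nuclear chromosomes TAIR10.1 carries over, and the deposited table itself holds no coordinates. NRT2.6 lies on the minus strand at chr3:16477561-16479559 and has 2 exons with a coding length of 1629 bases. NRT2.3 lies on the plus strand at chr5:24450745-24452964, with 3 exons and 1620 coding bases, and its nearest gene upstream is NRT2.4, 3617 bases away on the same strand with no annotated gene between them. NIA1 lies on the minus strand at chr1:29235721-29239484, with 4 exons and 2754 coding bases, the same coding length as NIA2 on that chromosome.

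Although NRT2.3 sits beside NRT2.4, its closest relative in coding sequence was NRT2.6. The coding sequences of NRT2.3 and NRT2.6 were identical at 81.9% of 1620 aligned bases, against 70.5% for NRT2.3 and NRT2.4 and 69.6% for NRT2.4 and NRT2.6. Over the 21 pairs of the 7 NRT2 genes this was the second highest identity, after the 89.4% of NRT2.1 and NRT2.2. The 2 NRT2 genes of the table are therefore each other's nearest relatives, and the stretches below show where a read could most easily be confused between them. These are the 100 coding bases of NRT2.6 (chr3:16479074-16479173, minus strand) and of NRT2.3 (chr5:24451043-24451142, plus strand) that differ least, with capitals at the 10 positions that differ.
NRT2.6: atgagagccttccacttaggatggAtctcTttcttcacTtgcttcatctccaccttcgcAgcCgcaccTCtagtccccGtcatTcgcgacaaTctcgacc
NRT2.3: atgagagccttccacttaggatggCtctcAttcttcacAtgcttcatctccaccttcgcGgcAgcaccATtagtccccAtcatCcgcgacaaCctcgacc

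NIA1 and NIA2 were identical at 74.1% of 2721 aligned coding bases. Their closest 100 coding bases, in NIA1 at chr1:29236892-29236991 (minus strand) and in NIA2 at chr1:14160657-14160756 (plus strand), differ at the 14 positions in capitals.
NIA1: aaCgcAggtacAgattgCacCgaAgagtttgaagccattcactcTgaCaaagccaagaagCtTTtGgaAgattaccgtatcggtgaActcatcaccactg
NIA2: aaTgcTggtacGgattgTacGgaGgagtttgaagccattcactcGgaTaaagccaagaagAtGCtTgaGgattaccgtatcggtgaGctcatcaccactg

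These stretches bear on the values because reads of 100 bases were sequenced and how reads were assigned is not given in the sources used here. No 100-base stretch inside an exon of NRT2.6 (1714 distinct stretches), NRT2.3 (1625) or NIA1 (2759) occurred elsewhere in the genome on either strand, and none did at 50 bases. At 25 bases, 9 of the 1864 stretches of NRT2.6 recurred and none of those of NRT2.3 or NIA1. NRT2.1 and NRT2.2, which the table does not list, share 71 of their 100-base exon stretches with another place in the genome. None of the 3 genes overlaps another annotated gene. The 3' end of NRT2.6 faces that of AT3G45050, 36 bases away on the opposite strand, and NRT2.3 ends 293 bases from the end of ABCF1 on the opposite strand. Neither neighbour is listed in the table, and the labels describe the libraries as directional.

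**Figure D1:**
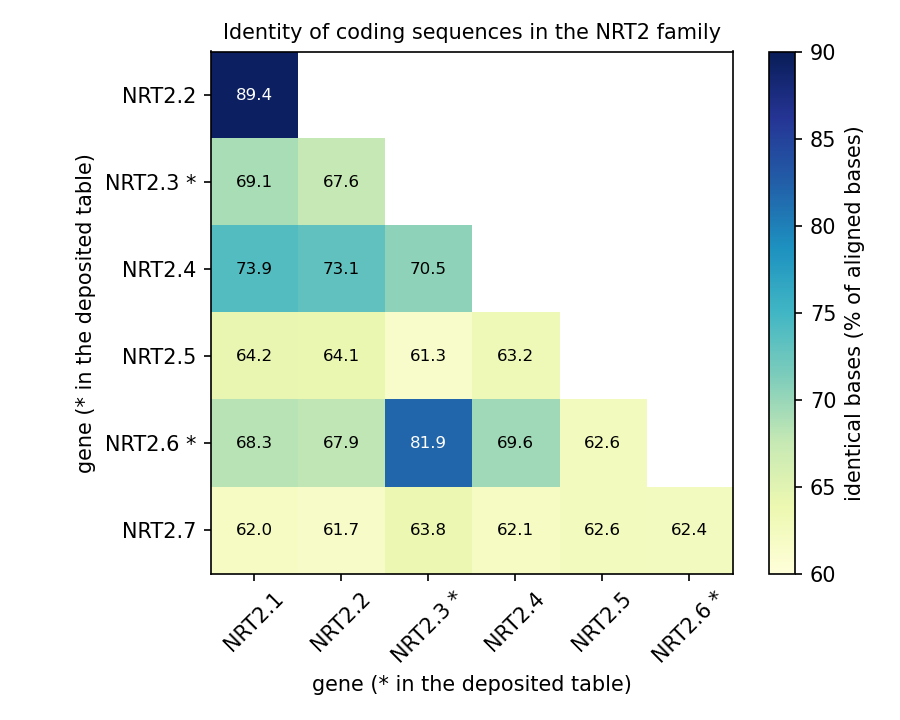
Identity of coding sequences between the 7 NRT2 genes, as the percentage of aligned bases that are the same (colour and number), with an asterisk at the 2 genes that the deposited table lists. NRT2.3 and NRT2.6 form the second closest pair at 81.9%, after NRT2.1 and NRT2.2 at 89.4%, and every other pair is at 73.9% or less.

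Among the transporters, NRT2.6 showed one of the deepest decreases of the whole table. In the authors' deposited table its expression value fell from 16.8 in wild-type roots to 1.25 in hb13 roots, so that 7.43% of the wild-type value was left, a 13.5-fold difference. On the log2 scale the authors' deposited table put mutant over wild type at -3.75 for NRT2.6 (q-value 0.00246). By size this was the second largest change among 706 entries that have a fold change, in either direction. Neither the header nor any label says on which scale expression values stand, so levels are compared between genotypes within a gene, and across genes they serve only to group entries of like value.

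NRT2.3 was also lower in the mutant. From 2.43 in wild-type roots its expression value fell to 0.762 in hb13 roots in the authors' deposited table, which leaves 31.4% of the wild-type value, a 3.18-fold difference. That is -1.67 on the log2 scale, for which the authors' deposited table has the same q-value of 0.00246, and NRT2.3 ranked 13 of the 312 lower entries with a fold change. Without counts the error of a value such as 0.762 in the mutant is unknown.

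NIA1, the reductase, went the other way. In the authors' deposited table its expression value rose 1.70-fold, from 4.03 in wild-type roots to 6.87 in hb13 roots, which is 0.77 on the log2 scale (q-value 0.00246). It ranked 156 of the 394 higher entries, whose median log2 ratio in the authors' deposited table was 0.68. The change of NIA1 was thus close to the middle of the listed increases. The changes of NRT2.6 and NRT2.3 exceeded 99.4% and 95.8% of the 312 listed decreases with a fold change. The 2 lower entries without a fold change are not among these. The shared q-value is the smallest in the table and was held by 342 entries, so the 3 genes cannot be ranked by it.

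**Figure D2:**
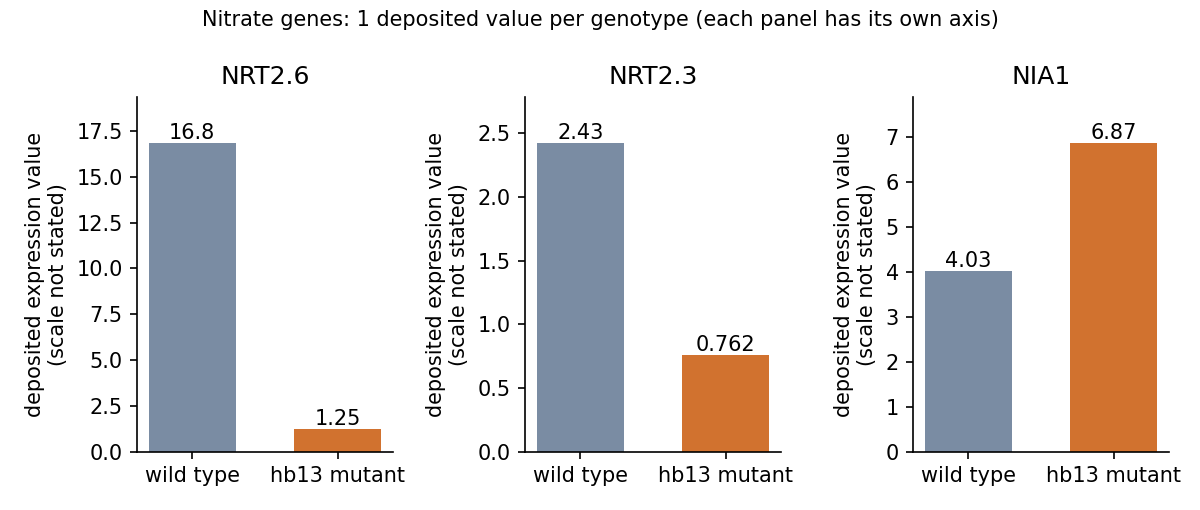
Expression value deposited by the authors for NRT2.6, NRT2.3 and NIA1 (vertical axis, scale not stated, each panel with its own axis from 0) in wild-type and hb13 mutant roots, with 1 value per genotype and no error available. NRT2.6 goes from 16.8 to 1.25 and NRT2.3 from 2.43 to 0.762, while NIA1 goes from 4.03 to 6.87.

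Since entries with low values are listed mostly when their change is large, each gene was set beside the 100 entries nearest to it in mean value of the 2 genotypes. Of the 100 entries around NRT2.6, with mean values from 6.75 to 11.9, 1 had a larger absolute log2 ratio in the authors' deposited table, and their median was 0.72. Around NRT2.3, where mean values ran from 0.988 to 3.86, the median absolute log2 ratio in the authors' deposited table was 1.05 and 15 of 100 entries exceeded that of NRT2.3. Around NIA1, with mean values from 3.94 to 7.57, the median was 0.83 and 59 of 100 entries had a larger absolute log2 ratio than NIA1 in the authors' deposited table. Among entries of like deposited value NRT2.6 was therefore second in size of change, NRT2.3 was in the upper part of its range, and NIA1 was below the middle of its own.

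**Figure D3:**
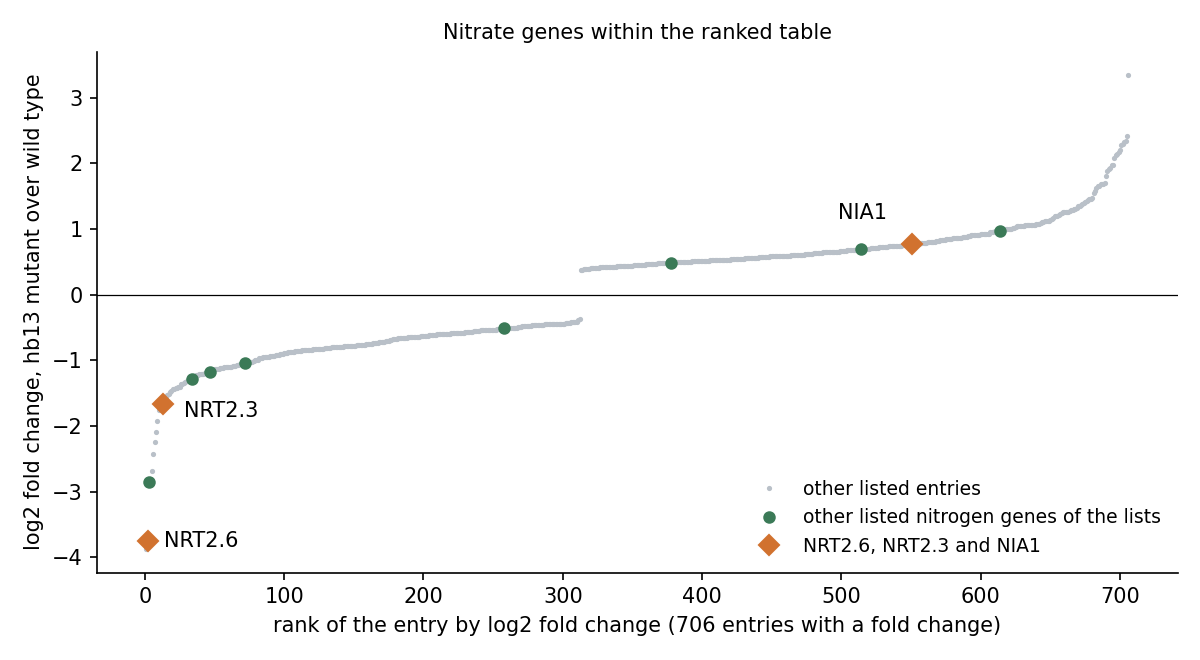
The 706 entries with a fold change in order of their log2 fold change of hb13 mutant over wild type (vertical axis) by rank (horizontal axis), with diamonds for NRT2.6, NRT2.3 and NIA1 and circles for the other listed nitrogen genes. NRT2.6 at -3.75 and NRT2.3 at -1.67 lie in the steep lower end, and NIA1 at 0.77 lies on the flat part of the increases.

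The rest of the NRT2 family and the second reductase are not listed. The table has no entry for NRT2.1, NRT2.2, NRT2.4, NRT2.5 or NRT2.7, none for NIA2 and none for the partner protein NRT3.1. It holds entries that passed a q-value of 0.05, so these genes have no value here, and their levels and differences between genotypes are unknown. Of the 7 NRT2 genes, 2 were listed and both were lower, and of the 2 nitrate reductases 1 was listed, as higher. For comparison, 2.48% of the 27562 annotated protein-coding genes were listed (1.37% as higher and 1.11% as lower), 55.6% of all 708 entries were higher and 44.4% were lower. How many genes the authors tested is not given in the sources used here, and the members were chosen for being listed, so nothing is read from these shares about them.

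The wider pathway was described with 90 genes in 9 lists that cover uptake, reduction, assimilation and regulation. The lists were written with earlier results of these data known, so their counts are no independent measure of the pathway. Of the 90 genes, 11 (12.2%) were listed, 4 as higher and 7 as lower in the mutant. Over all annotated protein-coding genes 2.48% were listed, and of all 708 entries 55.6% were higher and 44.4% lower. The median log2 ratio of the 11 genes in the authors' deposited table was -1.03, against 0.45 over all 706 entries. Without NRT2.6, NRT2.3 and NIA1, 8 of the other 87 genes were listed, 3 as higher and 5 as lower, with a median of -0.77. Listed entries have no values near 0, so these medians mainly follow which direction holds more entries. None of the 14 genes for nitrite reduction, molybdenum cofactor and reductant supply was listed, nitrite reductase NIR1 included, and none of the 6 anion channels and vacuolar exchangers. A step that follows nitrate reductase directly was thus not among the listed changes, and no values bear on whether it differed.

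Among the other carriers, the table lists 2 of the 13 NPF genes picked as nitrate transporters, in opposite directions, and 1 of 5 ammonium transporters. The 13 are only part of the NPF family, so these directions do not describe the family. NPF7.3 (NRT1.5), which loads nitrate into the root xylem, fell in expression value from 9.86 to 4.38 in the authors' deposited table, or -1.17 on the log2 scale (q-value 0.00246). NPF2.7 (NAXT1), a nitrate efflux carrier of the root, rose from 37.7 to 53.0 in the authors' deposited table, or 0.49 on the log2 scale (q-value 0.00462). AMT1;2, an ammonium uptake carrier, fell from 13.3 to 6.48 in the authors' deposited table, or -1.03 on the log2 scale (q-value 0.00246). The decrease of NRT2.6 was larger than that of either lower carrier, and the annotation places NPF7.3 over part of AT1G32440 on the opposite strand. A search of the RefSeq gene names for nitrate or NRT, made after the values were seen, matched 45 genes, of which 8 were listed and 3 were outside the lists. The listed share of all annotated protein-coding genes was 2.48%. The rest of the 8 belong to the lists, which were written with earlier results known, so nothing is read from this count. The 3 outside the lists were GTR1, GTR2 and PTR1, carriers of the NPF family known for glucosinolates and peptides. All 3 were higher, with log2 ratios of 0.72, 0.56 and 0.52 in the authors' deposited table. NPF genes whose RefSeq names carry neither word were not searched for.

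Of 15 genes of ammonium assimilation 2 were listed, both lower. ASN1, an asparagine synthetase known to be induced in the dark, fell in expression value from 42.4 to 5.86 per the authors' deposited table, or -2.85 on the log2 scale (q-value 0.00246). It followed NRT2.6 directly in the order of decreases, and it overlaps AT3G47341 on the opposite strand. GDH2, a glutamate dehydrogenase, fell from 590.1 to 413.2 per the authors' deposited table, or -0.51 on the log2 scale (q-value 0.00462). No glutamine synthetase or glutamate synthase gene of the list was among the entries.

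Of 26 regulators 3 were listed, 2 as higher and 1 as lower. BT2, a BTB and TAZ domain protein known to hold down NRT2.1 and NRT2.4 transcripts at low nitrate, fell in expression value from 52.6 to 21.7 per the authors' deposited table, or -1.28 on the log2 scale. HRS1, a GARP transcription factor of the NIGT1 group, whose members are known to repress NRT2 genes, rose from 61.1 to 98.8 per the authors' deposited table, or 0.69 on the log2 scale. NLP8, a NIN-like protein known for the promotion of germination by nitrate, rose from 2.31 to 4.55 per the authors' deposited table, or 0.98 on the log2 scale. For all 3 the authors' deposited table gave 0.00246 as the q-value, and the transcription factor NLP7 was not listed. None of the 100-base exon stretches of these 8 further genes occurred elsewhere in the genome. At 50 bases NPF2.7 had 62 of 2099 stretches that recurred and the other 7 had none, while at 25 bases NPF2.7 had 260 of 2199, GDH2 had 84 of 1899 and the others at most 22.

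**Figure D4:**
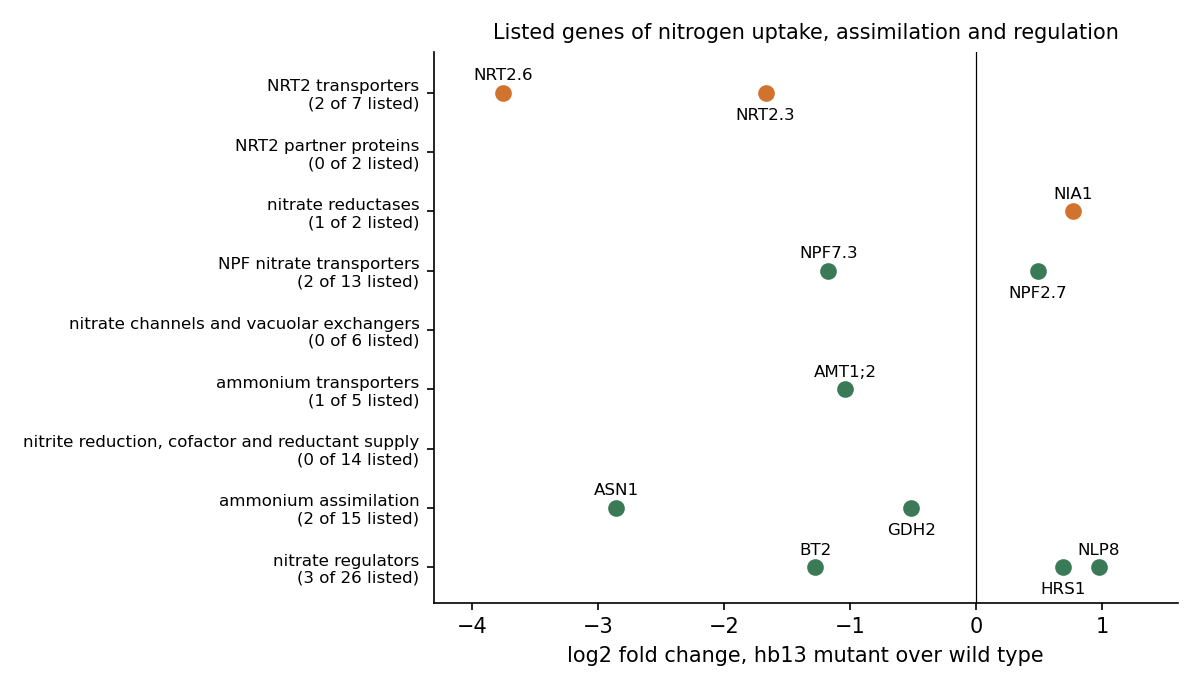
Log2 fold change of hb13 mutant over wild type (horizontal axis) for the 11 listed genes of 90 in 9 lists of nitrogen uptake, assimilation and regulation (vertical axis, with the number listed of each list). NRT2.6, NRT2.3 and NIA1 are in orange, 7 genes lie left of 0 and 4 right of it, and 3 lists have no listed gene.

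Because the mutated gene encodes a transcription factor and because NRT2.6 and NRT2.3 were lower together, the sequences before their annotated starts were compared. The 250 bases upstream of each start are printed for both, with NRT2.4 for contrast as the unlisted neighbour of NRT2.3, and for NIA1. In NRT2.6 (chr3:16479560-16479809, minus strand) and NRT2.3 (chr5:24450495-24450744, plus strand) capitals mark the 30 bases most alike between them. In NRT2.4 (chr5:24444115-24444364, plus strand) and NIA1 (chr1:29239485-29239734, minus strand) capitals mark each GAATC, the core bound by NIGT1 proteins, on either strand.
NRT2.6: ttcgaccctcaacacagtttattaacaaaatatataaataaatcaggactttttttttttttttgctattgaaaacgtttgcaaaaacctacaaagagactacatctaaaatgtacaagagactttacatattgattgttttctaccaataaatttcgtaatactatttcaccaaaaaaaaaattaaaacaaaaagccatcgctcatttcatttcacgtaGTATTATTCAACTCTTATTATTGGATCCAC
NRT2.3: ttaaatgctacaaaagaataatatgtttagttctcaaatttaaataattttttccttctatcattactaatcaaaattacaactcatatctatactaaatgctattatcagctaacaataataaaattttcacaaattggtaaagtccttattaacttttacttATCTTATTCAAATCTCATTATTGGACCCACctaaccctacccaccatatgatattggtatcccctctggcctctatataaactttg
NRT2.4: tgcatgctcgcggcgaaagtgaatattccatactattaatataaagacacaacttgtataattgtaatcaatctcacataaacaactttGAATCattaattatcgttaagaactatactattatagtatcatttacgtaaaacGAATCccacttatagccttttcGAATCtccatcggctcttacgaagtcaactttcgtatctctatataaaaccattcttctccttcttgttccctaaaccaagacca
NIA1: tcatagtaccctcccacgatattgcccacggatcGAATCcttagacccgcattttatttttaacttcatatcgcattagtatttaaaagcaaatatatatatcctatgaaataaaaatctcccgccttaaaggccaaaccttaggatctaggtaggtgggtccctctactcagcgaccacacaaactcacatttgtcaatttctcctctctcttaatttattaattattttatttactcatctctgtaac

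The marked stretches of NRT2.6 and NRT2.3 share 25 of 30 bases. The last base of the stretch lies 1 base before the annotated start of NRT2.6 and 57 bases before that of NRT2.3. Over the 21 NRT2 pairs this was the second closest 30-base match, after NRT2.1 and NRT2.2 with 29 of 30, and NRT2.3 shared no more than 18 of 30 with its neighbour NRT2.4. By this 30-base match NRT2.3 and NRT2.6 were the second closest pair upstream, as in coding sequence, which is a description of the sequence only. The rank depends on the measure. Their longest identical upstream run was 9 bases, against 12 for NRT2.2 and NRT2.6 and 11 for NRT2.3 and NRT2.4. By the 30-base match, other pairs did not keep the order of their coding identity. NRT2.2 and NRT2.6 shared 23 of 30 upstream bases at 67.9% coding identity, while NRT2.1 and NRT2.4 shared 20 of 30 at 73.9%.

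GAATC, searched on both strands, was found in none of the 250-base windows of NRT2.6 and NRT2.3, once in that of NIA1, and 2, 3, 3 and 2 times in those of NRT2.1, NRT2.2, NRT2.4 and NRT2.5, while the windows of NRT2.7 and NIA2 held none. It occurs in 38.8% of the 27443 windows of this length before protein-coding genes. The palindrome CAATNATTG, to which homeodomain-leucine zipper class I proteins are known to bind, was found in none of the 9 windows of the NRT2 and NIA genes, against 0.918% of all windows. A missing match says only that these letters are not in this window.

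By the log2 ratio alone, the entries nearest to NRT2.6 in the authors' deposited table were AT3G24517 with a log2 ratio of -3.87, ASN1 with -2.85 and MIOX4, an inositol oxygenase, with -2.81. Nearest to NRT2.3 in the authors' deposited table were AGT, an aminotransferase of photorespiration, with -1.66, GAT1_2.1, a glutamine amidotransferase-like gene, with -1.68, and GSTL1, a glutathione transferase, with -1.68. Beside NIA1 the authors' deposited table had AT5G24570, AT1G34330 and IAA12, an auxin response repressor, each with 0.77. The likeness rests on 1 fold change from the same 6 libraries, and while the neighbours of NRT2.3 and NIA1 lie within 0.0151 of them, ASN1 and MIOX4 lie 0.897 and 0.944 from NRT2.6.

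HB13 itself is not listed, so the genotype labels were not checked against its transcript. Of the markers of other tissues and cell types, none of 9 shoot photosynthesis genes and none of the 9 markers of endodermis, stele, cortex, meristem, xylem and phloem was listed. Only 2.48% of annotated protein-coding genes were listed, so an absence from lists this short says nothing about tissue makeup. Root hair genes were listed in 2 of 4 cases, both higher. Per the authors' deposited table, PRP3 rose in expression value from 1191 to 1609, or 0.43 on the log2 scale, and RSL4 from 68.7 to 101.5, or 0.56. Outside the marker lists, and named after their values were seen, the root hair regulators ZFP5, RSL1 and RHD6 were also higher, with log2 ratios of 1.55, 1.44 and 0.62 in the authors' deposited table. ROPGEF3, a gene of root hair initiation, was lower there, with a log2 ratio of -0.45. Of light and chlorophyll genes named in the same way, some were lower, with log2 ratios of -1.36 for ELIP1, -1.27 for ELIP2, -0.75 for NPQ4 and -0.60 for GUN5 in the authors' deposited table. The light-signalling genes PKS1 and BZS1 were higher there, with 0.81 and 0.80. Neither the root hair nor the light genes outside the marker lists were counted from a full list, so no shared direction is read from them. All 6 plastid-genome entries with a fold change were higher, beside 55.6% of all 708 entries. Their log2 ratios in the authors' deposited table ran from 0.44 to 1.12, and the number of plastid genes tested is unknown. The part of any of these in the nitrate gene values was not tested, and in whole tissue fewer cells of a type and less RNA per cell cannot be told apart.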

How the data were processed

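RNA sequencing libraries of 3 wild-type and 3 hb13 mutant root samples were grouped by their titles. The authors deposited 1 table of their own comparison. Per the file headers it gives an expression signal for each genotype with a q-value and the log2 of their ratio. The submitters' processing notes name TopHat2 2.0.13, Cufflinks 2.1.1, Cuffdiff and the build TAIR10, without their roles. Cuffdiff usually reports length-scaled values, but the scale, the annotation, the read assignment and the normalization are not given in the sources used here. The deposited log2 fold change equalled the log2 of mutant over wild-type value to within 1.02e-05 in the 706 entries that have one, and 2 entries with a mutant value of 0 have none. The deposited q-values ran from 0.00246 to 0.05.

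With no value per library or count, the planned fits were not made and depth is unknown. The 3 genes, the gene lists and the comparisons were chosen with earlier results of these data known. Genes named by rule were the 3 genes, every listed gene of the lists, and the 3 entries nearest in log2 fold change to each of the 3 genes. Listed markers, unlisted NRT2 and NIA genes and annotated neighbours were also named by rule. The comparisons of mean values, promoter stretches and gene names, the last of which gave GTR1, GTR2 and PTR1, were added after the values were seen. Root hair, light and chlorophyll genes outside the marker lists were picked by hand after the values were seen. The plastid-genome entries were not planned either. RefSeq (TAIR10.1) matched 695 of 708 entries and 89 of the 90 list genes. No protein was compared. Coding sequences were aligned globally (match 2, mismatch -1, gap opening -5, extension -0.5), and stretches were searched without gaps. Sequence searches were tested on simulated data. Python 3.11.15, pandas 2.3.3, NumPy 2.4.6, Biopython 1.88 and matplotlib 3.10.9 were used.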

Additional observations from a re-analysis of the deposited data

How the results depend on the processing

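No paired analysis was possible because single libraries have no values in the table, and likewise no replicate could be left out. Of the settings run, only rescaling the genotypes could have turned a direction. Its single shift lowered every log2 ratio, so among the 3 genes only NIA1 could have turned, and it did not. The medians used are those of entries listed as differing, so rescaling is no check of the normalization. With a pseudocount of 1 the log2 fold changes were -2.99 for NRT2.6, -0.96 for NRT2.3 and 0.65 for NIA1. Dividing by the median listed value of each genotype, a shift of 0.23 on the log2 scale, gave -3.98, -1.90 and 0.54. NRT2.3 (-1.67) left the list at a mean value of at least 5, and NIA1 (0.77) when an absolute log2 ratio of at least 1 was required. At that size 0 of the 4 higher nitrogen genes remained, beside 6 of the 7 lower ones. All entries fell from 394 higher and 314 lower to 88 and 81 there, and to 238 and 194 at a q-value under 0.01, as fewer entries qualify. The 81 keep the 2 entries without a fold change. The sequencing depth, and with it the error of each value, is unknown for all 3 genes.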
